A study of Caenorhabditis elegans with 6 samples.

Results

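The eggshell and oocyte surface genes examined here are 10 of the 20000 genes in the files. They were listed by name from what their proteins do, with earlier results of these data known, so that counts over them are descriptions. They are the chondroitin proteoglycan genes cpg-1 and cpg-2, the chitin synthase gene chs-1, the egg genes egg-1, egg-2 and egg-3, the chitin-binding protein gene cbd-1, the permeability genes perm-2 and perm-4, and the yolk receptor gene rme-2. All 10 were in the files and all 10 passed the filter on low counts. RNA was sequenced from whole Caenorhabditis elegans animals at the L4 stage, the last larval stage, grown on Escherichia coli OP50 at 20°C. There were 3 libraries of ddi-1(icb156) mutants and 3 of wild type, labelled as biological replicates. The allele icb156 is a non-synonymous mutation from a chemical mutagenesis screen, in ddi-1, the protease gene whose product activates the transcription factor SKN-1A. The study lists it in a strain with the reporter transgene chil-27p::GFP, col-12p::mCherry, and the sources used here do not state whether the wild-type animals had the same transgene. The mutation, the transgene and any other mutation left by the screen therefore cannot be told apart.

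The nematode eggshell is built in layers around the newly fertilised egg, largely from material that the oocyte makes in advance. An outer vitelline layer covers a layer of chitin, beneath which lie a layer of chondroitin proteoglycans and a lipid-rich permeability barrier. Oocytes also take up yolk from the body cavity through a receptor on their surface. Hermaphrodites make sperm first and switch to oocytes around the end of the L4 stage, so transcripts of these genes are normally accumulating when L4 animals are collected.

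Depth and scaling bear on every value below. The libraries held 28962104 to 36258118 estimated counts in the mutants and 40554395 to 47142002 in wild type. CPM are counts scaled to 1 library size after TMM, which corrects for composition. Changes were tested with edgeR's quasi-likelihood test over 15409 genes, and a gene was called where p was below 0.01 and the adjusted p below 0.1. Of these genes 2071 were lower and 1535 higher in the mutants, and higher genes made up 42.6% of the calls, against 53.2% when libraries were scaled by size alone. ddi-1 itself had a log2 fold change of -0.48 (edgeR adjusted p = 0.00307), which does not check the labels because the allele changes the protein sequence. Wild-type replicate 2 stood apart, scoring 17.2 on the first principal component (78.5% of the variance), against -62.8 to -50.6 in the mutants and 77.3 and 74.9 in wild-type replicates 1 and 3. Calls of the 10 genes and counts over other lists are therefore also given without it where they change. Because the samples are whole animals, fewer germ cells and less RNA per germ cell cannot be told apart. The labels give no age within the L4 stage, and its part in the values below was not tested.

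Transcripts of 9 of the 10 genes fell in ddi-1(icb156) mutants, none rose, and egg-3 alone did not pass. This compares with 13.4% of all tested genes that were lower and 9.96% that were higher. The median log2 fold change of the 10 genes was -1.53, beside 0.01 over all tested genes. The falls came in 2 sizes. perm-2 and perm-4 fell to a small part of their wild-type level, 16.5-fold and 14.9-fold lower, whereas the other 8 genes were 1.64-fold to 3.10-fold lower, with a median log2 fold change of -1.29. In 9 of the 10 genes every mutant library lay below every wild-type library, as did 23.5% of all tested genes (46.9% were without overlap in either direction). Without wild-type replicate 2, all 10 genes were lower, beside 22.2% of all tested genes.

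**Figure D1:**
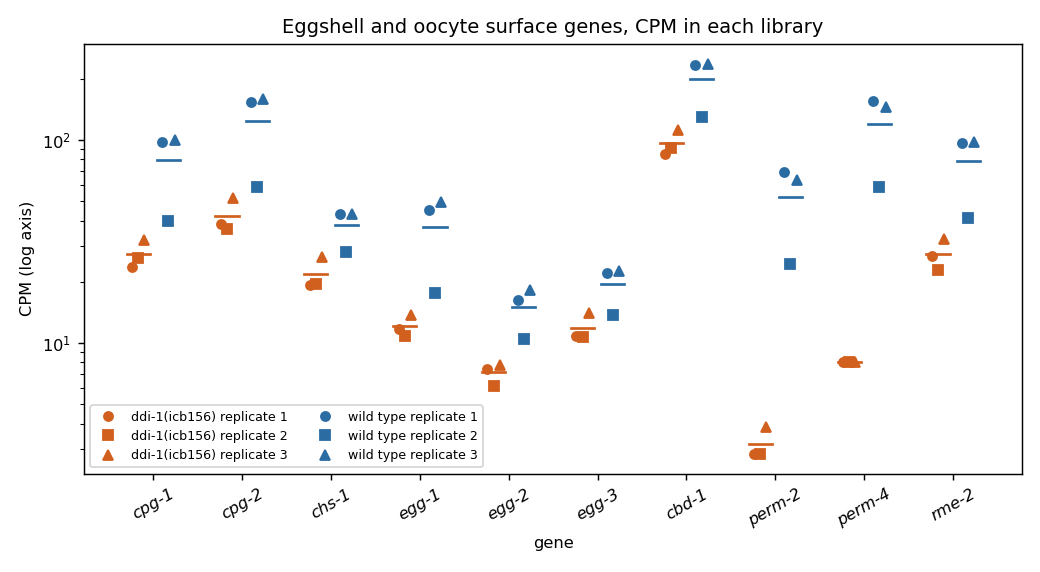
CPM on a log axis of the 10 eggshell and oocyte surface genes in 3 ddi-1(icb156) libraries (orange, left) and 3 wild-type libraries (blue, right). Symbols mark replicates 1 to 3 and bars mark group means. Wild-type replicate 2 (blue squares) was the lowest wild-type library for every gene, and the groups overlapped for egg-3 only.

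perm-2 and perm-4 encode secreted proteins of the vitelline layer, needed for an impermeable eggshell. perm-2 (C44B12.1) had 2.85, 2.83 and 3.85 CPM in mutant replicates 1 to 3, against 69.3, 24.4 and 63.2 CPM in wild-type replicates 1 to 3. Even the lowest wild-type library was 6.32-fold above the highest mutant library. Its log2 fold change was -4.04 (standard error, SE, 0.44, edgeR adjusted p = 0.00292). perm-4 (C44B12.5) had 8.01, 8.01 and 8.07 CPM in the mutants, against 155, 58.2 and 145 CPM in wild type. In CPM the coefficient of variation was 0.488% among the 3 mutant libraries and 44.6% in wild type. The mutant match is closer than counts of 239, 311 and 266 can resolve. In TPM the same mutant libraries were less alike, at 7.14, 7.71 and 7.17. The value of 0.488% is therefore no measure of how little perm-4 varied between mutant replicates. The log2 fold change of perm-4 was -3.90 (SE 0.39, edgeR adjusted p = 0.00225). These values rest on 85 to 127 counts per mutant library for perm-2 and 239 to 311 for perm-4. Both were called lower in each of the 15 alternative analyses, with log2 fold changes of -4.39 to -3.66 for perm-2 and -4.23 to -3.56 for perm-4, and adjusted p no higher than 0.0284 and 0.0241 in edgeR, DESeq2 or limma.

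The 2 perm genes are neighbours on chromosome IV and point away from each other. On WBcel235, perm-4 lies on the minus strand from 1121494 to 1125107 and perm-2 on the plus strand from 1126790 to 1128865. The 1682 bases between them hold no other protein-coding gene. perm-4 exceeded perm-2 in log2 CPM by 1.49, 1.499 and 1.07 in the mutants and by 1.16, 1.26 and 1.20 in wild type, a difference of 0.15 between the group means (exact permutation test, two-sided p = 0.4, adjusted p = 0.5). An exact test of 3 libraries against 3 cannot go below p = 0.1, so it does not show that the pair changed alike. Of the genes on either side, C44B12.6, which shares 25 exonic bases with perm-2 on the opposite strand, was higher in the mutants at 44, 65 and 55 counts, against 23, 28 and 24 in wild type (log2 fold change 1.41, edgeR adjusted p = 0.0105). srx-13, beyond perm-4, had 4, 5 and 2 counts in the mutants, against 8, 12 and 11 in wild type, too few to be tested.

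The larger fall of the perm pair was also compared within libraries, in a test chosen after the values were seen. Relative to the median log2 CPM of the other 8 genes, perm-2 stood at -2.91, -2.90 and -2.92 in the mutants and at 0.07, -0.45 and -0.14 in wild type. This is a difference of -2.74. perm-4 stood at -1.42, -1.40 and -1.86 in the mutants and at 1.23, 0.80 and 1.06 in wild type, a difference of -2.59. The groups did not overlap in either ratio. The pair was picked for its larger fall in these same libraries, so this separation is a description only. The exact permutation test gave p = 0.1 for each, two-sided, the smallest p that 3 libraries against 3 allow, and 0.25 when adjusted over the 5 ratios computed.

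cbd-1 encodes a chitin-binding protein that lies with PERM-2 and PERM-4 in the vitelline layer. It is the gene of the 10 with the most counts, 2541 to 3694 in the mutants and 5150 to 10613 in wild type. It had 85.1, 91.5 and 112 CPM in the mutants, against 232, 129 and 238 CPM in wild type. The groups did not overlap, but mutant replicate 3 came within a factor of 1.15 of wild-type replicate 2. The log2 fold change was -1.05 (SE 0.25, edgeR adjusted p = 0.0308). cbd-1 lies on chromosome IV from 11372991 to 11377627.

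cpg-1 and cpg-2 encode the chondroitin proteoglycans of the layer beneath the chitin, which also carry chitin-binding domains. cpg-1 (chromosome III, 4489359 to 4491392) had 23.5, 26.3 and 32.2 CPM in the mutants, against 97.7, 39.9 and 99.7 CPM in wild type. cpg-2 (chromosome III, 7102092 to 7103990) had 38.6, 36.5 and 51.7 CPM in the mutants, against 153, 58.5 and 159 CPM in wild type. In both genes wild-type replicate 2 was nearer to the mutants than to the other wild-type libraries. The log2 fold changes were close, at -1.53 for cpg-1 (SE 0.35, edgeR adjusted p = 0.0297) and -1.55 for cpg-2 (SE 0.38, edgeR adjusted p = 0.0340). The log2 ratio of cpg-1 to cpg-2 was -0.71 to -0.47 in the mutants and -0.67 to -0.55 in wild type (exact permutation test, two-sided p = 1).

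chs-1 encodes the chitin synthase of the oocyte membrane, which lays down eggshell chitin after fertilisation. It had 19.4, 19.5 and 26.5 CPM in the mutants, against 42.9, 27.9 and 43.0 CPM in wild type. The groups came close, with 1.05-fold between wild-type replicate 2 and the highest mutant library. The log2 fold change was -0.80 (SE 0.21, edgeR adjusted p = 0.0380). chs-1 lies on chromosome I from 7554855 to 7559916. By limma on log2(TPM + 1) and log2(TPM + 0.5), chs-1 missed the limit on the unadjusted p, at -0.65 and -0.70 (adjusted p = 0.0532 and 0.05201). The reason was not tested.

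egg-1 and egg-2 encode related membrane proteins with LDL-receptor repeats, which sperm need on the oocyte surface for fertilisation. egg-1 (chromosome III, 5728180 to 5730159) had 11.7, 10.8 and 13.8 CPM in the mutants, against 45.1, 17.7 and 49.4 CPM in wild type. Its log2 fold change of -1.63 (SE 0.38, edgeR adjusted p = 0.03002) was the largest fall outside the perm pair. egg-2 (chromosome III, 7058527 to 7060583) had 7.47, 6.15 and 7.80 CPM in the mutants, against 16.2, 10.4 and 18.2 CPM in wild type. The groups did not overlap in either gene, and the log2 fold change of egg-2 was -1.06 (SE 0.23, edgeR adjusted p = 0.0254). As copies of one another the 2 genes could share reads, and how far kallisto divided reads between them was not tested. The log2 ratio of egg-1 to egg-2 was 0.64, 0.81 and 0.82 in the mutants and 1.48, 0.76 and 1.44 in wild type. Wild-type replicate 2 thus had the ratio of the mutants (exact permutation test, two-sided p = 0.3, adjusted p = 0.5).

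egg-3 encodes a pseudophosphatase that holds CHS-1 and the kinase MBK-2 at the oocyte cortex. It had 10.8, 10.7 and 14.02 CPM in the mutants, against 21.98, 13.8 and 22.6 CPM in wild type. Mutant replicate 3 lay just above wild-type replicate 2, so the groups overlapped. The log2 fold change was -0.72 (SE 0.22, edgeR adjusted p = 0.0569), which missed the limit on the unadjusted p. egg-3 passed by DESeq2's Wald test (adjusted p = 0.0119), with replicates blocked by number (adjusted p = 0.0337) and without wild-type replicate 2 (log2 fold change -0.92, adjusted p = 4.69e-04). Over all alternatives its adjusted p ran from 4.69e-04 to 0.178. It lies on chromosome II from 10882408 to 10884441.

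rme-2 encodes the yolk receptor of the oocyte, a member of the LDL receptor family. It had 26.8, 22.8 and 32.4 CPM in the mutants, against 96.3, 41.2 and 98.0 CPM in wild type. The log2 fold change was -1.52 (SE 0.34, edgeR adjusted p = 0.0284), with no overlap between the groups. rme-2 lies on chromosome IV from 5470026 to 5473174. Its ligands, the yolk proteins, are made in the intestine. Every one of the 6 yolk protein genes was lower (median log2 fold change -4.60), beside 13.4% of all tested genes. Their summed level was 58.2 to 95.7 TPM in the mutants, against 506 to 1018 TPM in wild type. The largest falls by p were those of vit-4, vit-3 and vit-5, at log2 fold changes of -7.64, -7.14 and -5.80.

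**Figure D2:**
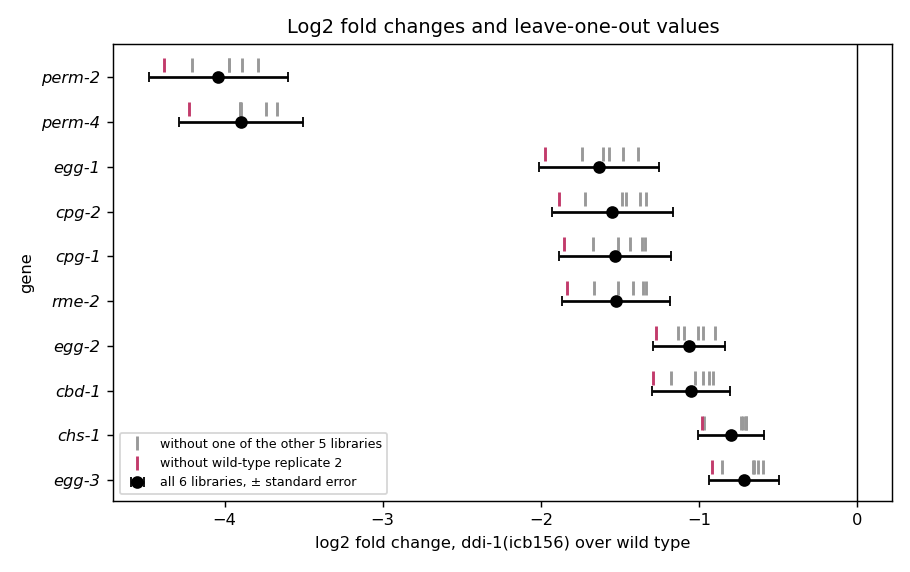
Log2 fold change of ddi-1(icb156) over wild type for the 10 genes (points, with the standard error from edgeR as bars), and the values with a single library left out (ticks). perm-2 and perm-4 lay near -4 and the other 8 genes between -1.63 and -0.72. Leaving out wild-type replicate 2 gave the lowest value for every gene.

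Apart from perm-2 and perm-4, the calls depended on which library was left out. Without wild-type replicate 2 all 10 genes were called lower, as given above. Only perm-2 and perm-4 were called lower without mutant replicate 1, mutant replicate 2, wild-type replicate 1 or wild-type replicate 3. Without mutant replicate 3, chs-1, egg-2, cbd-1, perm-2 and perm-4 were called. Without one of these 5 libraries, 4.93% to 7.62% of all tested genes were called lower, all 10 log2 fold changes were below 0, and 9 or 10 of the genes had an unadjusted p below 0.05.

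Levels can be compared between genes only per length, as TPM, which were computed here from estimated counts and effective lengths. In the mutants cpg-2 had the highest level, at 24.005 ± 4.03 TPM (SD, n = 3), followed by cbd-1, cpg-1, rme-2, perm-4, egg-1, egg-3, perm-2, chs-1 and egg-2 at 3.95 ± 0.313 TPM (SD, n = 3). In wild type perm-4 led at 106 ± 45.9 TPM and perm-2 came next at 84.3 ± 39.0 TPM (SD, n = 3 each). By group means, the other 8 genes kept in wild type the order they had in the mutants. In that order perm-4 stood in place 5 in the mutants and place 1 in wild type, and perm-2 in places 8 and 2. Between neighbours in the mutant order, only cbd-1 over cpg-1, cpg-1 over rme-2 and rme-2 over perm-4 were separated in all libraries without overlap. In wild type, where replicate 2 was low, all neighbours overlapped, and cbd-1 was above cpg-1 in 1 of the 3 libraries only. Single libraries also left the order elsewhere. egg-2 was above chs-1 in wild-type replicate 3 (9.71 against 9.13 TPM), and egg-3 above egg-1 in mutant replicate 3 (7.40 against 7.29 TPM).

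The summed level of the 10 genes was 91.9, 97.4 and 117 TPM in the mutants, against 512, 216 and 505 TPM in wild type. perm-2 and perm-4 together made up 12.6%, 12.9% and 11.5% of it in the mutants and 48.3%, 42.8% and 45.7% in wild type. Without the pair, the other 8 genes summed to 89.5 ± 12.2 TPM in the mutants and 221 ± 84.0 TPM in wild type (SD, n = 3 each). The share of the pair was thus close among wild-type libraries, including replicate 2, whose sum was less than that of either other wild-type library.

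**Figure D3:**
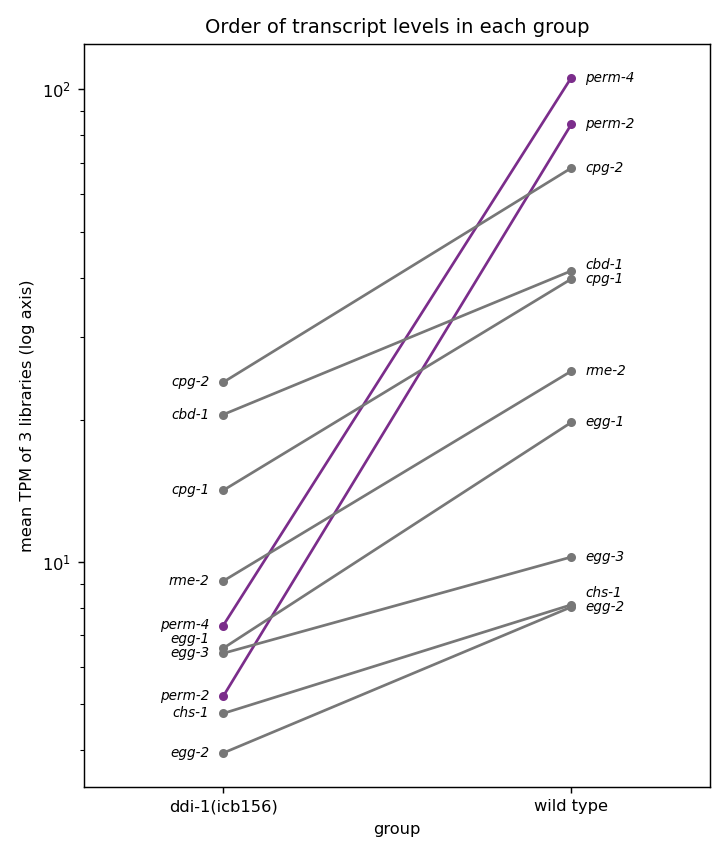
Mean TPM of each gene in ddi-1(icb156) (left) and wild type (right), 3 libraries each, on a log axis. Purple lines mark perm-2 and perm-4 and grey lines the other 8 genes. The grey lines keep their order, and the purple lines cross them, with perm-4 at 7.34 TPM in the mutants and 106 TPM in wild type.

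Wild-type libraries differed more than mutant libraries in all 10 genes, with coefficients of variation of 0.488% to 19.5% in the mutants and 22.9% to 46.6% in wild type. The lowest, that of perm-4 in the mutants, is below what its counts can resolve, as given above. Replicate 2 was the lowest wild-type library for every gene, and the mean of wild-type replicates 1 and 3 was 1.54-fold to 2.72-fold above it. perm-2 and perm-4 were 2.72-fold and 2.58-fold lower in replicate 2, much as cpg-2 and egg-1 were at 2.67-fold each. The 2 kinds of genes parted in the mutants. For the other 8 genes replicate 2 was only 1.16-fold to 1.51-fold above the mutant mean, whereas for perm-2 and perm-4 it was 7.66-fold and 7.25-fold above it.

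On a scale of log2 CPM from the mutant mean (0%) to the mean of wild-type replicates 1 and 3 (100%), replicate 2 stood at 67.1% for perm-2 and 67.6% for perm-4, and at 24.8% to 43.8% for the other 8 genes. This scale was set after the values were seen and carries no test. By the medians of other lists, replicate 2 stood at 78.9% for the yolk proteins and 79.9% for collagens of the adult cuticle. It stood at 26.3% for sperm genes and 18.3% for RNA-binding regulators of oocytes and germline. For the same shortfall in replicate 2, a gene with a larger fall in the mutants stands higher on this scale, so these values also carry the sizes of the falls. Medians can also hide single genes. Replicate 2 was not the lowest wild-type library for bli-1 (708, 891 and 863 CPM in wild-type replicates 1 to 3), bli-2 (519, 520 and 581 CPM) or vit-1 (238, 244 and 277 CPM). It was the lowest for the other yolk protein and adult cuticle genes listed.

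**Figure D4:**
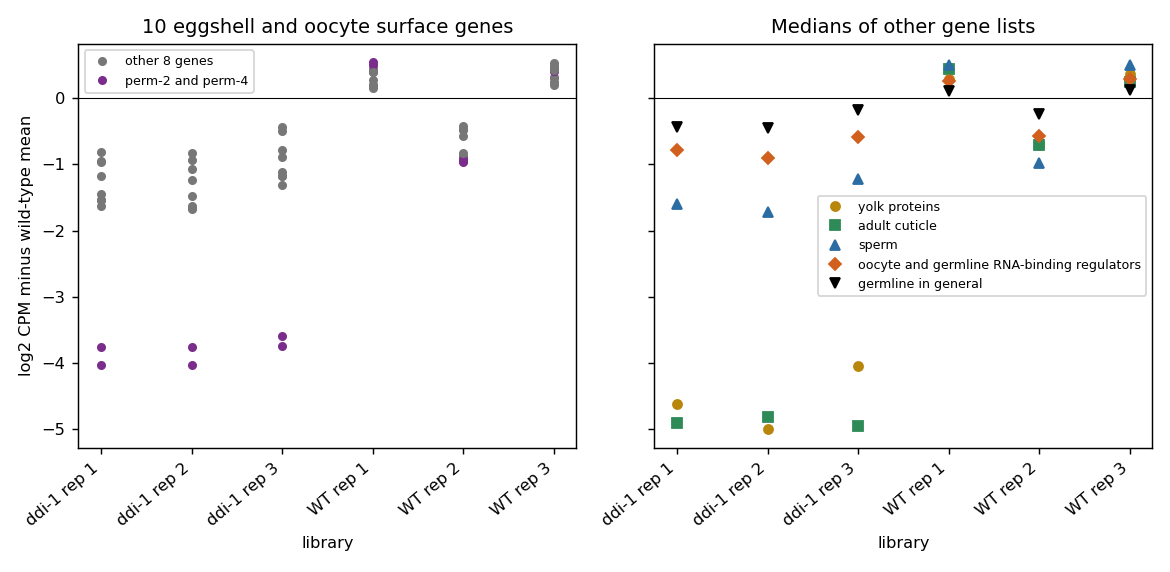
Log2 CPM minus the wild-type mean in each library, for the 10 genes (left panel, perm-2 and perm-4 in purple) and as the median of 5 other gene lists (right panel). perm-2 and perm-4 lay between -4.04 and -3.60 in the mutants, and the yolk protein and adult cuticle medians between -5.01 and -4.05. In wild-type replicate 2 these 2 genes and the medians were near -0.7 to -1.0, but bli-1, bli-2 and vit-1 were not lowest there.

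Other genes of the eggshell, of egg activation and of the cpg name series moved less as a median, but not each of them. cpg-3 fell more than any member outside the perm pair, and egg-4, egg-5 and perm-1 lay within the range of those members. perm-1 (-1.18, edgeR adjusted p = 0.0492) missed the limit on the unadjusted p. The other listed genes fell by less. Of 12 listed, 11 were in the files and tested. Of these, 5 were lower, beside 13.4% of all tested genes, and 6 did not pass. The median log2 fold change was -0.57. cpg-3, a further chondroitin proteoglycan gene of the eggshell, had 5.23, 5.28 and 5.46 CPM in the mutants, against 26.3, 9.52 and 28.0 CPM in wild type. Its log2 fold change was -1.997 (SE 0.40, edgeR adjusted p = 0.0220). perm-5 and cpg-8 were lower by less, at -0.54 and -0.35. egg-4 and egg-5, near-identical pseudophosphatase genes that act with egg-3 and share reads, were lower as well (-1.26 and -1.04). mbk-2, the kinase gene of egg activation, had a log2 fold change of -0.16 (adjusted p = 0.243) and did not pass. Without wild-type replicate 2 the count of lower genes was 9, beside 22.2% of all tested genes, and without any other single library it was 1 or 2.

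Among genes that supply chitin and chondroitin, gfat-2 alone had a log2 fold change within the range of the 10 genes. Of 5 genes for chitin precursors and chitin synthesis, 2 were lower, beside 13.4% of all tested genes, as for each list below. These were gfat-2 and gfat-1, for the enzyme at the head of the hexosamine pathway, with log2 fold changes of -1.44 and -0.58 (edgeR adjusted p = 0.0287 and 0.0226). gfat-2 had 18.9, 18.5 and 23.9 CPM in the mutants, against 66.4, 29.8 and 70.0 CPM in wild type. chs-2, the chitin synthase gene of the pharynx, did not pass, at a log2 fold change of -0.27 (adjusted p = 0.207). Of 9 chondroitin synthesis genes, sqv-5 and sqv-7 were lower, at -0.33 and -0.40, and the median was -0.16. Neither was called by library size alone or on either log2 TPM scale, and 1 of the 9 was called with the replicate block. Of 7 genes for the permeability barrier and its lipids, emb-8 alone was lower, at -0.40, with a median of -0.39. This share is close to the 13.4% of all tested genes. Of 11 genes for endocytosis of yolk, 4 were lower, or 2 by library size alone or on either log2 TPM scale, with a median of -0.18. They included chc-1, the clathrin heavy chain gene, at -0.48, rme-1, a recycling endosome gene, at -0.35, and snx-1, a sorting nexin gene, at -0.33. Single libraries moved these counts. Without wild-type replicate 2 the lower genes were 4 for chitin, 4 for chondroitin and 4 for the barrier and its lipids, beside 22.2% of all tested genes. Without any other library, at most 1 for chitin and 1 for chondroitin were lower.

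Of 24 RNA-binding regulators of oocytes and germline, 12 were lower, beside 13.4% of all tested genes, and the other 12 were not called. The median log2 fold change of the 24 genes was -0.78. With the replicate block 18 were lower, as were 18 by DESeq2. lin-41, which encodes an RNA-binding protein of oocytes, was the only one above 0, at 0.48, and was not called. puf-5, puf-3 and mex-6, which encode RNA-binding proteins that act in oocytes and early embryos, had log2 fold changes of -2.003, -1.61 and -1.34 (edgeR adjusted p = 0.0235, 0.0273 and 0.0275). Without wild-type replicate 2, 20 of these genes were lower, beside 22.2% of all tested genes, and without any other single library 0 to 4 were.

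Markers of other cells and of stage moved beside these genes, and their part in the results was not tested. With all libraries, each count below stands beside 13.4% of all tested genes that were lower and 9.96% that were higher. Of 15 tested sperm genes 12 were lower (median log2 fold change -1.73), at a summed level of 165 to 241 TPM in the mutants, against 345 to 1089 TPM in wild type. msd-4, sss-1 and spe-10 led by p, at -2.19, -2.35 and -1.48. Of 15 general germline genes 2 were lower, deps-1 (-0.67) and him-3 (-0.46), with a median of -0.35 and a summed level of 756 to 886 TPM in the mutants, against 918 to 1105 TPM in wild type. This share of the germline genes is close to the 13.4% of all tested genes. All 15 log2 fold changes were below 0, and their median lay below the lowest quartile of all tested genes, -0.26. Of the 15 genes, 5 were lower with the replicate block and 9 by DESeq2, beside 14.3% and 18.4% of all tested genes. Without wild-type replicate 2 the lower sperm genes were 15 and the lower germline genes 13, beside 22.2% of all tested genes. Without one of the other libraries they were 0 to 5 in either list. Of 9 genes of the gonadal sheath and spermatheca 4 were lower, led by the gap junction genes inx-9 (-1.01) and inx-8 (-0.78) and the forkhead gene fkh-6 (-0.58), and tnt-3 was higher (0.25). Their summed level was 269 to 298 TPM in the mutants and 291 to 313 TPM in wild type. tnt-3 did not pass with size factors by median of ratios or with the replicate block, and without wild-type replicate 2 the higher genes of this list were 2.

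Collagen genes of the adult cuticle had the lowest median of the lists, although vit-4 and vit-3 fell by more than any of those tested. All 6 that were tested of the 8 listed were lower, beside 13.4% of all tested genes. Their median log2 fold change was -5.04, at a summed level of 160 to 194 TPM in the mutants, against 3232 to 5961 TPM in wild type. They included bli-2 (-3.55), bli-1 (-3.82) and col-38 (-5.14). The summed levels of markers of the intestine (6100 to 6796 TPM in the mutants and 4896 to 5988 TPM in wild type) and of the epidermis (2740 to 3070 TPM in the mutants and 2670 to 2845 TPM in wild type) were closer. ifb-2 was the only intestine marker of 8 to pass, higher at 0.35, beside 9.96% of all tested genes that were higher. cpr-1 rose more (0.70, edgeR adjusted p = 0.0449) but missed the limit on the unadjusted p. By library size alone 3 intestine markers were higher. By DESeq2, without the filter, on either log2 TPM scale or without the robust option, 2 were. Among 9 epidermis markers rol-6 was higher (0.68) and qua-1 lower (-0.67). With the replicate block 2 epidermis markers were lower. Sums can hide single genes. dpy-7, an epidermis marker, had 148, 182 and 163 CPM in the mutants, against 81.5, 314 and 118 CPM in wild type. As a median, the epidermis markers in wild-type replicate 2 lay -0.02 in log2 CPM from the wild-type mean. Without wild-type replicate 2, 8 adult cuticle genes were lower, beside 22.2% of all tested genes, and 2 intestine and 3 epidermis markers were higher. Without any other single library, 0 or 1 intestine markers were higher. Of 11 genes first transcribed in early embryos, 10 had at most 21 counts over all 6 libraries and were not tested, and hlh-25, hlh-27 and sdz-19 were at 0.

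The members lie on chromosomes III (4 genes), IV (4 genes), I and II, and their protein-coding neighbours were examined after the values were seen. Of 18 neighbours that are not members, 15 were tested, of which 6 were lower and 3 higher. This is 40%, beside 13.4% lower over all tested genes, with no test. Both neighbours of rme-2 were lower, Y52D5A.2 at a log2 fold change of -1.99 and T11F8.4 at -1.59, and so were both neighbours of egg-2, R01H2.2 at -1.40 and R01H2.4 at -1.85. B0244.9 was lower (-1.60) but shares 42 exonic bases with egg-1 on the opposite strand. The files do not say whether reads kept their strand, so some of its counts may belong to egg-1. lurp-1, which shares 21 exonic bases with egg-3 on the opposite strand, went the other way (0.86). chs-1 shares 5 exonic bases with T25G3.3, which had a log2 fold change of -0.08 and did not pass.

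The 10 genes followed each other closely across the 6 libraries. Pearson's r of log2 CPM between pairs of them ran from 0.898 to 0.998 over 45 pairs, as a description over libraries that share the split between the groups. Outside the list, the genes whose log2 CPM was most like the mean standardised profile of the 10 were Y50E8A.12, F26A1.4, alg-4, spe-46 and Y69A2AR.19, with r of 0.9992 to 0.9996 over 6 libraries. alg-4 encodes an Argonaute of the male germline and spe-46 a protein of sperm activation. Of 13213 genes compared, 458 had an r above 0.99. alg-4 had 35.6, 32.7 and 48.0 CPM in the mutants, against 147, 62.7 and 152 CPM in wild type.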

How the data were processed

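The authors sequenced RNA of synchronized L4 animals and ran kallisto on each library, with the WormBase transcriptome WS283 as its index, and then Sleuth. Tool versions, like strandedness, were not given in the sources used here. Deposited for each library were estimated counts, which need not be whole and were neither normalized nor pooled by the authors, with lengths and effective lengths in bases, other values that were used only for TPM.

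Of 37058 transcripts, 30413 were joined to genes by transcript ID and 6633 by sequence name in the WBcel235 annotation (Ensembl release 115), and 12 kept their own names. For each gene the estimated counts were added up and rounded. Groups came from the sample titles. edgeR 4.0.16 under R 4.3.3 was used with filterByExpr, TMM and the robust quasi-likelihood test (4 residual degrees of freedom), two-sided, with Benjamini-Hochberg adjustment over all genes tested. Standard errors were derived from its F statistics. Same-numbered libraries correlated weakly in their deviations from group means (r of 0.114, 0.309 and 0.185), and differently numbered libraries were not compared. The labels state no pairing, so the main fit was unpaired and the replicate block was an alternative.

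Alternatives were other scalings, filters, DESeq2 1.42.0, limma 3.58.1 on log2 TPM, the block, a fit without the robust option and each library left out. Named genes are the 10 members, up to 3 called genes of each list by p, any called gene that goes against its list, and the 5 genes of most similar profile. Other genes of the lists are named after their values were seen. The members and lists were chosen with earlier results of these data known. perm-6, fer-14 and opt-2 were not matched. That replicates came from separate cultures is not stated beyond their labels. No sequence is shown, since none was used here.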

Additional observations from a re-analysis of the deposited data

How the results depend on the processing

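All 10 log2 fold changes kept their direction in the 15 alternatives. Of 150 values, 113 stayed on the same side of the threshold, 34 no longer passed and 3, all of egg-3, passed anew. The count of lower members was 8 to 10 under other scalings, filters, tools and scales, 10 with the replicate block, and 2 to 10 with a library left out. It was 0 for higher members throughout. The block gave 2200 lower and 1404 higher genes and changed no other call among the members. With a library left out, lower genes numbered 771 to 3477, higher genes 931 to 3088 and lower genes of the related lists 11 to 51, beside 2071, 1535 and 32 with all libraries. Leaving out wild-type replicate 2 gave the highest of these. Higher genes were 42.6% of calls with all libraries, 53.2% by library size alone, and 52.7% and 51.7% in limma with pseudocounts of 1 and 0.5 TPM. DESeq2 called 9 general germline genes lower, where edgeR called 2, beside 18.4% and 13.4% of all tested genes. A lower count with a library left out also reflects fewer samples in the fit.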

Other observations

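For several of these genes the files list transcripts of similar length, and kallisto's division of counts between them changed greatly from library to library. For egg-1, B0244.8.1 (1799 bases) took 99.4%, 0.296% and 0% of the gene's counts in mutant replicates 1 to 3 and 7.74%, 8.38% and 0.00360% in wild-type replicates 1 to 3. The other transcript, B0244.8.2, is 1805 bases long. For cpg-1, C07G2.1a.1 took 0.417%, 75.2% and 16.7% in the mutants and 0.211% to 1.47% in wild type, beside a transcript of 1896 bases against its 1889. For egg-2, R01H2.3.1 took all, all and 0.2802% in the mutants and 67.0% to 77.2% in wild type. chs-1, with transcripts of 4288 and 4177 bases, was also split unevenly. T25G3.2.1 took 64.3%, 87.9% and 16.2% in the mutants and 30.02% to 48.3% in wild type. The division was steadier for cbd-1, where H02I12.1.1 took 3.73% to 15.3% over all libraries. The sums per gene, used in every test above, had coefficients of variation of at most 19.5% among mutant libraries. egg-3 had all of its counts on F44F4.2.2 in every library, and perm-4 has a single transcript in the files.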
